A study of Oryza sativa with 8 samples.

Results

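The genes described here are LOC_Os07g44430 and LOC_Os07g44440, neighbouring rice loci on chromosome 7 that are annotated as 1-Cys peroxiredoxin A and 1-Cys peroxiredoxin B. They are 2 of the 57403 genes in the expression matrix, and they were taken by identifier. Both were picked with their levels in all 8 libraries already known. Their levels and differences are therefore descriptions, without p-values. Both passed the filter on low values, which kept 25281 genes that reached 1 TPM in 2 or more libraries. TPM is transcript abundance corrected for length and scaled to a fixed total per library.

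RNA came from whole seedlings of the japonica rice cultivar ZH11, the wild type, and of OE1, a transgenic line whose label is overexpression of ScOYE3, a yeast old yellow enzyme. Plants were grown hydroponically for 2 weeks. The 4 groups were OE1 after 8 h with 0.8 mM 2-nitroaniline, OE1 untreated, ZH11 after 8 h with 0.8 mM 2-nitroaniline, and ZH11 untreated, with 2 libraries each and 20 plants pooled per library. OE1 is 1 transgenic line, the promoter of its transgene is not given in the sources used here, and the transgene's own level was not analysed here. Whether the pools of a group were separate cultures is not stated, so the p-values given for other genes measure only the spread between these libraries, which may be technical.

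Peroxiredoxins are thiol enzymes that reduce hydrogen peroxide and organic hydroperoxides through a conserved cysteine. The 1-Cys class keeps only that peroxidatic cysteine, whereas the 2-Cys class adds a resolving cysteine that closes a disulfide within each catalytic cycle. In barley and Arabidopsis, 1-Cys peroxiredoxins are known mainly as proteins of embryo and aleurone in seeds. 2-Nitroaniline is a nitroaromatic compound, and old yellow enzymes are flavin enzymes that use NADPH to reduce activated double bonds and some nitro compounds.

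The libraries had 42.1 M to 56.5 M trimmed reads, of which 92.14% to 93.44% were placed at a single position. Treated ZH11 replicate 2 stood apart from the others. It had a GC content of 52.04%, where the other 7 libraries had 53.51% to 55.43%, and its median absolute log2 difference from replicate 1 was 0.45, against 0.20 or less between the replicates of the other groups. For the 2164 tested genes of 600 to 849 nt other than the pair, a range that includes the listed lengths of both, the median of its log2 deviations from the 8-library mean was -0.46, against -0.02 to 0.17 in the others. Trimmed reads averaged 149 nt in that library and 149.8 nt in untreated ZH11 replicate 2, but only 145 to 147 nt in the other 6 libraries. The part of these differences in the results was not tested. For the treatment differences of the pair in ZH11, values within each read length are given beside the pooled ones.

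Gene A, LOC_Os07g44430, was listed with a length of 768 nt and had 95.6 and 81.8 TPM in treated OE1, against 32.8 and 38.5 TPM in untreated OE1. In ZH11 it had 194 and 117 TPM after treatment, against 33.9 and 34.7 TPM without it. Every treated library lay above every untreated one, and the 4 untreated libraries of both genotypes overlapped. The mean was 88.7 ± 9.77 TPM in treated OE1 and 35.6 ± 4.06 TPM in untreated OE1 (SD, n = 2 each). It was 156 ± 54.2 TPM in treated ZH11 and 34.3 ± 0.54 TPM in untreated ZH11 (SD, n = 2 each). The ratio of the means was 2.49 in OE1 and 4.54 in ZH11.

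Gene B, LOC_Os07g44440, was listed with a length of 663 nt and had 322 and 321 TPM in treated OE1, against 121 and 114 TPM in untreated OE1. In ZH11 it had 663 and 977 TPM after treatment, against 98.8 and 122 TPM without it. The treated and untreated libraries did not overlap in either genotype, and both treated ZH11 libraries lay above both treated OE1 libraries. The mean was 322 ± 0.69 TPM in treated OE1 and 117 ± 4.86 TPM in untreated OE1 (SD, n = 2 each). It was 820 ± 222 TPM in treated ZH11 and 110 ± 16.4 TPM in untreated ZH11 (SD, n = 2 each). The ratio of the means was 2.75 in OE1 and 7.43 in ZH11. Among all genes of the matrix, B ranked 147 and 89 by TPM in the treated ZH11 libraries, against 1683 and 1320 in the untreated ones.

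**Figure D1:**
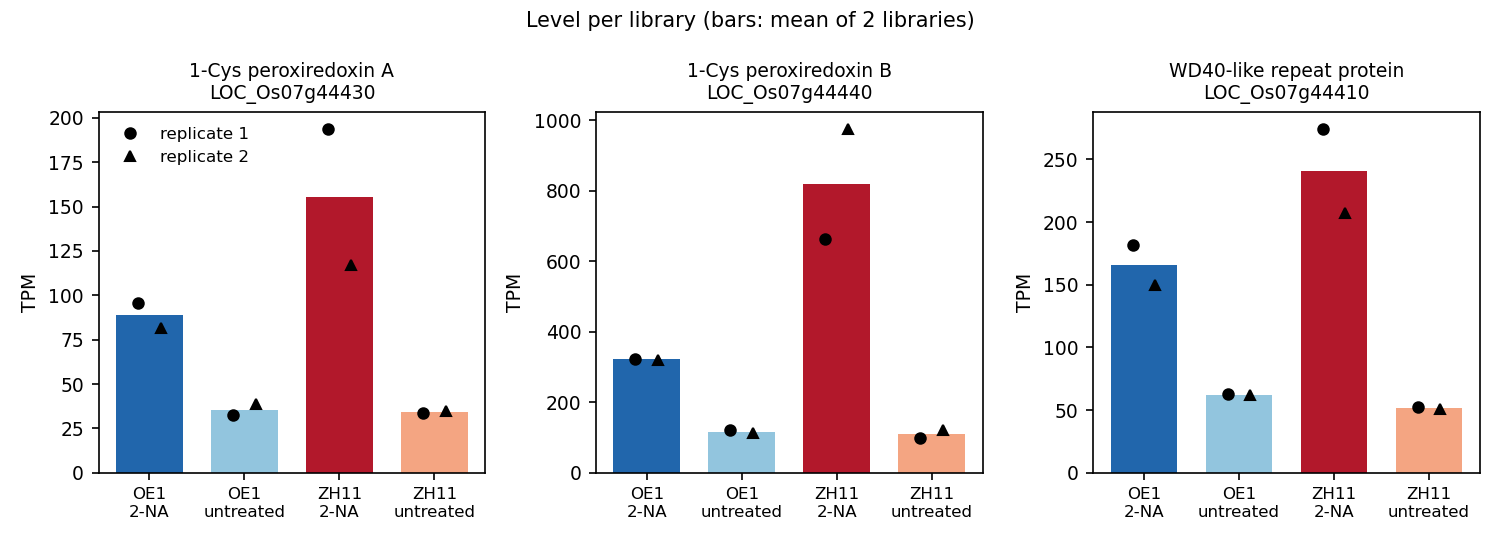
TPM of 1-Cys peroxiredoxin A, 1-Cys peroxiredoxin B and the nearby gene LOC_Os07g44410 in OE1 and ZH11 seedlings with and without 2-nitroaniline (2-NA); bars are means of 2 libraries and points are the libraries. In all 3 genes both treated libraries lie above both untreated ones in each genotype, and for gene B the treated ZH11 libraries sit at 663 and 977 TPM, against 322 and 321 TPM in treated OE1.

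Differences on the log2(TPM + 1) scale understate changes at low TPM. On that scale the treated minus untreated difference of gene A was 1.29 ± 0.24 in OE1 and 2.10 ± 0.24 in ZH11. That of gene B was 1.45 ± 0.20 in OE1 and 2.86 ± 0.20 in ZH11. These errors are standard errors from limma, with n = 2 libraries per group, and each gene's spread was estimated from the 8 libraries together. The medians over all tested genes were -0.04 in OE1 and 0.02 in ZH11. Among the 25281 tested genes the difference of B ranked 192 from the highest in OE1 and 16 in ZH11, and that of A ranked 275 and 49.

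Within the longer-read libraries, treated ZH11 replicate 2 was 1.73 above untreated ZH11 replicate 2 for gene A and 2.99 for gene B on the same log2 scale. Within the shorter-read libraries, treated ZH11 replicate 1 was 2.48 above untreated ZH11 replicate 1 for A and 2.73 for B. The treatment difference in ZH11 was thus positive in both kinds of library, and it was larger for B than for A in each. All OE1 libraries were of the shorter kind.

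By TPM, treated OE1 had less of both transcripts than treated ZH11. The difference, OE1 minus ZH11, was -0.76 ± 0.24 for A and -1.32 ± 0.20 for B on the log2(TPM + 1) scale (limma standard error, n = 2 each). For A this size depended on which treated ZH11 library was used, being -0.40 with replicate 2 alone and -1.12 with replicate 1 alone. For B it was -1.60 with replicate 2 alone and -1.04 with replicate 1 alone. Without treatment the genotypes overlapped for both genes, and the OE1 minus ZH11 difference was 0.05 ± 0.24 for A and 0.09 ± 0.20 for B. The treatment difference in OE1 minus that in ZH11 was -0.81 ± 0.34 for A and -1.41 ± 0.29 for B. Without treated ZH11 replicate 1 that value was -0.45 for A and -1.69 for B, and without replicate 2 it was -1.17 for A and -1.13 for B.

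Across all tested genes a gene was called at a limma adjusted p (Benjamini-Hochberg) under 0.05 and an absolute log2 difference of at least 1. By that rule neither gene was called higher after treatment in OE1, where 0.127% of tested genes were, and both were called higher in ZH11, where 0.174% were. B alone was called lower in treated OE1 than in treated ZH11, as were 0.154% of tested genes. Neither was called between the untreated genotypes (0.443% of genes) or for the difference of the treatment effects (0.0316%). Groups that did not overlap were far more common, since 23.8% of tested genes were higher in both treated OE1 libraries than in both untreated ones, and 15.9% in ZH11. Both treated OE1 libraries lay below both treated ZH11 libraries in 19.3%. The genes were chosen on these values, so nothing is read from their calls.

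The 2 genes did not keep one ratio to each other. The TPM of B was 2.91 to 3.93 times that of A in 7 libraries and 8.33 times in treated ZH11 replicate 2. In that library A was lower and B higher than in replicate 1, by -0.72 and 0.56 on the log2(TPM + 1) scale. Of all tested genes, 27.2% differed between these 2 libraries by at least as much as A did, and 39.8% by at least as much as B. With the TPM of both genes added, treated ZH11 had 857 and 1094 TPM, against 133 and 157 TPM in untreated ZH11, and the ratio of the means was 6.74. In OE1 the sums were 418 and 403 TPM with treatment, against 153 and 152 TPM without it, and the ratio was 2.69.

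The authors' deposited tables of called genes also list estimated read counts, and these put the pair much closer together. By the authors' deposited tables gene B had 1.25 to 1.67 times the reads of A in the same 7 libraries and 3.43 times in treated ZH11 replicate 2. The authors' deposited tables gave A 1632 and 1638 reads in treated OE1, against 626 and 721 in untreated OE1, and 3424 and 1384 reads in treated ZH11, against 578 and 523 in untreated ZH11. The authors' deposited tables gave B 2341 and 2742 reads in treated OE1, against 976 and 929 in untreated OE1, and 5020 and 4743 in treated ZH11, against 723 and 711 in untreated ZH11. Counting error alone would be 4.37% or less of any of these counts, were they plain counts. That figure leaves out any error in dividing reads between A and B. The ratio of B to A was thus smaller in reads than in TPM in each of the 8 libraries. In the authors' deposited tables gene A received 2.29 to 2.59 times as many reads per TPM as B, although its listed length is only 1.16 times that of B. Relative to genes of 1500 nt and over in the authors' deposited tables, reads per TPM and listed nucleotide were 1.46 for A and 0.72 for B, against a median of 0.78 for 60 other genes of 700 to under 800 nt and 0.74 for 41 of 600 to under 700 nt. A and B are related neighbouring genes, and their estimated counts were fractional in most libraries, as at 1383.86 for A and 4743.14 for B in treated ZH11 replicate 2. In every library the counts of A and B add to a whole number. The counts of each gene are thus estimates that divide reads between the pair, by a rule not given in the sources used here. The part of that division in the ratio of B to A, and in its shift in treated ZH11 replicate 2, was not tested. In reads per TPM and listed nucleotide, A lay above its length group and B near its own, and the source of this gap was not tested. The level of A relative to B is uncertain by about the gap between the ratios in reads and in TPM. By the authors' deposited tables, the reads behind 1 TPM also varied between libraries, from 11.8 in treated ZH11 replicate 2 to 20.0 in treated OE1 replicate 2 for A, and from 4.86 to 8.54 in the same libraries for B. This range includes the libraries' unequal depth.

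**Figure D2:**
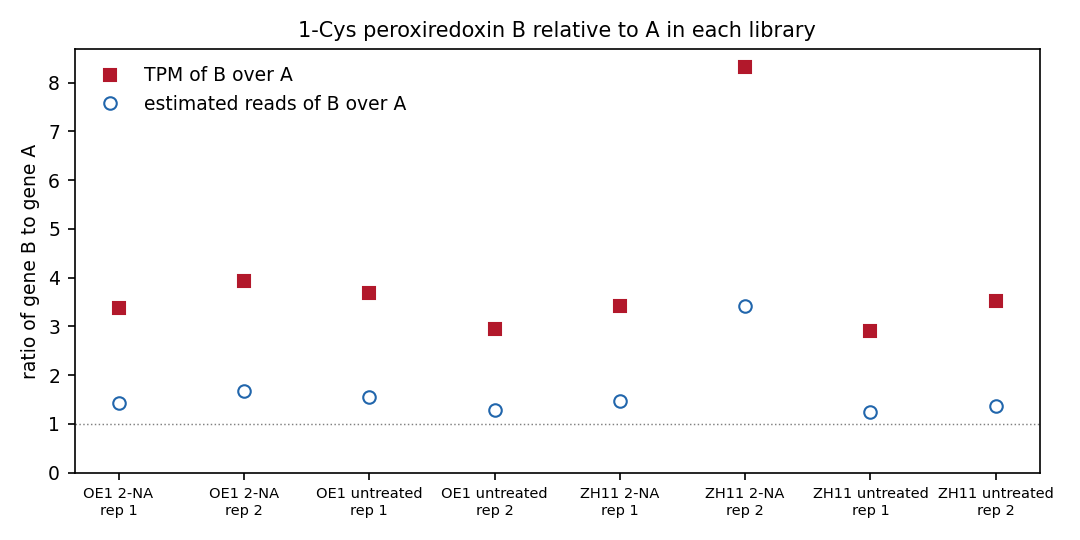
Ratio of 1-Cys peroxiredoxin B to A in each of the 8 libraries, from deposited TPM (squares) and from the authors' estimated read counts (circles); the dotted line marks equal values. Treated ZH11 replicate 2 stands at 8.33 by TPM and 3.43 by reads, above the other 7 libraries, which lie at 2.91 to 3.93 and 1.25 to 1.67.

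The authors' deposited table for OE1, with 531 called genes, lists log2 fold changes of 1.35 for A and 1.49 for B, treated over untreated. Their table for ZH11, with 115 called genes, lists 2.19 for A and 2.90 for B. In the authors' deposited table of treated OE1 over treated ZH11, with 260 genes, B is listed at -1.25 and A is not listed. Neither gene is among the 175 genes of the authors' deposited table for the untreated genotypes. These calls come from the same libraries and chose the genes in part, so they add no independent evidence.

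No other peroxiredoxin gene reached an absolute log2 difference of 1 after treatment. Of the 8 other peroxiredoxin genes, all 8 were tested and limma called 0 in any of the 5 comparisons. With 8 genes, 0 calls is also what the share of all tested genes called, 0.241% in OE1 and 0.289% in ZH11, would give. At an unadjusted p under 0.05, 1 was higher and 1 lower after treatment in OE1, and 1 was higher and 2 lower in ZH11, where 9.44% and 12.7% of all tested genes passed that mark in OE1 and ZH11. Their treatment differences ran from -0.61 to 0.33 in OE1 and from -0.88 to 0.67 in ZH11 on the log2(TPM + 1) scale, with medians of -0.04 and -0.21. The values of A and B lay outside the range of these 8 genes in both genotypes. The pair was chosen with its values known, so nothing is read from that contrast.

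The chloroplast 2-Cys peroxiredoxin gene LOC_Os02g33450, a match to BAS1, which removes peroxide at the photosynthetic membranes, had 394 and 382 TPM in treated OE1, against 495 and 497 TPM in untreated OE1. It had 366 and 238 TPM in treated ZH11, against 425 and 456 TPM in untreated ZH11. Its difference in ZH11 was -0.57 ± 0.20 (n = 2 per group, limma adjusted p = 0.325). The second BAS1 match, LOC_Os04g33970, averaged 13.2 TPM over the 8 libraries, and its difference in ZH11 was 0.67 ± 0.26 (limma adjusted p = 0.358). In TPM, gene B was below LOC_Os02g33450 in the untreated plants and in both treated OE1 libraries. It was above that gene in both treated ZH11 libraries.

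Among type II peroxiredoxins, which are small enzymes found in several compartments, the chloroplast gene LOC_Os02g09940 (Peroxiredoxin-2E-2) had the most negative difference, at -0.61 ± 0.22 in OE1 and -0.88 ± 0.22 in ZH11 (limma with 2 libraries per group, adjusted p = 0.419 and 0.193). The other chloroplast copy, LOC_Os06g42000 (Peroxiredoxin-2E-1), was at 0.09 in OE1 and -0.21 in ZH11. The mitochondrial LOC_Os01g16152 (Peroxiredoxin-2F) was at -0.07 in OE1 and -0.49 in ZH11, and LOC_Os01g48420 (Peroxiredoxin-2C) at -0.05 and -0.21. The peroxiredoxin Q match LOC_Os06g09610, of a thylakoid enzyme, was at 0.33 ± 0.13 in OE1 and 0.04 ± 0.13 in ZH11 (limma adjusted p = 0.49 and 0.893). LOC_Os07g15670, a peroxiredoxin with no Swiss-Prot match, was at -0.04 in OE1 and 0.05 in ZH11. Calls of 2 of these genes depended on 1 library: without treated ZH11 replicate 1, which leaves the library that stands apart, assumed to vary like the other groups, LOC_Os02g09940 and LOC_Os01g16152 passed as lower in treated ZH11, at -1.23 and -1.07 (limma adjusted p = 0.000999 and 0.0013).

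**Figure D3:**
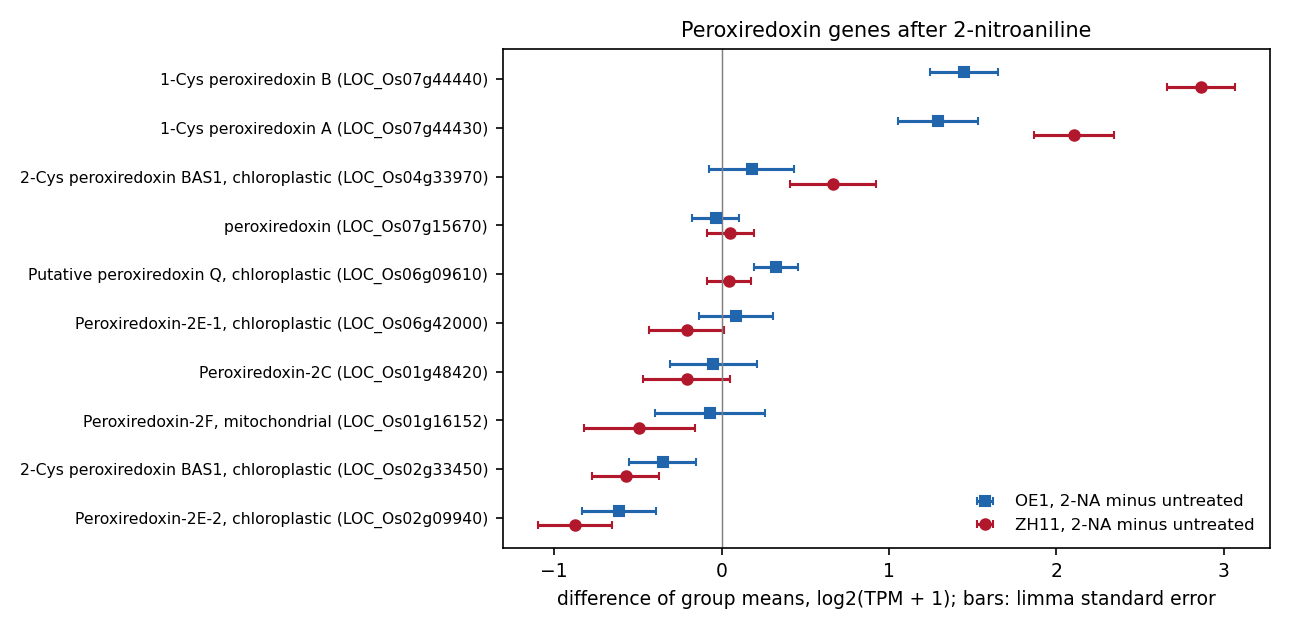
Treated minus untreated difference of log2(TPM + 1) group means for the 10 peroxiredoxin genes, in OE1 (squares) and ZH11 (circles), with limma standard errors (n = 2 libraries per group). The pair lies at 1.29 to 2.86, and the other 8 genes lie between -0.88 and 0.67.

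Other enzymes that remove peroxide or serve as thiol donors were taken as 7 lists by protein domain or annotation, with 137 genes tested. Limma called none of the 137 after treatment in OE1 (0.241% of all tested genes called) or in ZH11 (0.289%). At an unadjusted p under 0.05, 8 were higher and 8 lower in OE1, and 7 were higher and 12 lower in ZH11. These counts lie near the shares over all tested genes, 5.36% higher and 4.08% lower in OE1, and 5.42% higher and 7.25% lower in ZH11. The list medians over these genes were 0.01 in OE1 and -0.06 in ZH11, against -0.04 and 0.02 over all tested genes. The 6 glutathione peroxidase genes, 10 ascorbate peroxidase genes and 9 superoxide dismutase genes had medians between -0.04 and 0.06 in OE1 and between -0.21 and -0.03 in ZH11. The 66 genes of the thioredoxin list, whose products pass electrons to target disulfides, had medians of -0.01 in OE1 and -0.07 in ZH11, and the 36 glutaredoxin genes 0.02 and -0.07. The 10 genes for thioredoxin reductases, glutathione reductases and sulfiredoxins, which keep thiol enzymes reduced, had a median of 0.01 in OE1 and 0.02 in ZH11.

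The 3 catalase genes, whose products break down hydrogen peroxide in peroxisomes, had the highest median of these 7 lists in ZH11, at 0.74, against 0.25 in OE1. LOC_Os03g03910 had 876 and 1638 TPM in treated ZH11, against 526 and 493 TPM in untreated ZH11 (difference 1.23, limma adjusted p = 0.148). LOC_Os06g51150 had 358 and 448 TPM in treated ZH11, against 228 and 251 TPM in untreated ZH11 (difference 0.74, limma adjusted p = 0.141). Both sets of treated ZH11 libraries lay above the untreated ones, as in 15.9% of all tested genes, but neither difference passed the adjustment. LOC_Os02g02400 overlapped between the groups. All 3 genes were higher in treated ZH11 replicate 2, the library that stands apart, than in replicate 1. The part of that library in these differences was not tested.

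Genes typical of seeds, the tissue in which 1-Cys peroxiredoxins are best known, were also examined. Of 31 late embryogenesis abundant and dehydrin genes, proteins of drying seeds and water stress, 22 were tested and limma called 0 after treatment in either genotype, as the shares of 0.241% and 0.289% over all genes would also give. At an unadjusted p under 0.05, 1 was higher and 6 lower in OE1, and 0 were higher and 3 lower in ZH11, with medians of -0.22 and -0.26. Over all tested genes 4.08% were lower at that mark in OE1 and 7.25% in ZH11. Between genotypes, 8 of the 22 were higher and 0 lower in untreated OE1 than in untreated ZH11 at an unadjusted p under 0.05 (3.46% and 1.48% of all tested genes), with a median of 0.47 against 0.01 over all genes. With treatment the counts were again 8 and 0 (9.83% and 5.25% of all tested genes), with a median of 0.48 against -0.03, and limma called 1 of the 22 without treatment and 0 with it. The dehydrin Rab16D match LOC_Os11g26750 had 3.94 and 4.49 TPM in untreated OE1, against 0.90 and 0.95 TPM in untreated ZH11 (difference 1.44 ± 0.21, n = 2 each, limma adjusted p = 0.0448), a call that ended under 11 of 16 alternatives. Of 6 oleosin genes, coat proteins of seed oil bodies, 1 was tested, and of 31 seed storage protein genes 6 were. Limma called 0 of these after treatment, with 2 higher and 0 lower in OE1 and 0 higher and 1 lower in ZH11 at an unadjusted p under 0.05. With 7 genes tested, 0 calls is again what the shares over all genes would give.

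The organ make-up of the seedlings was checked with marker genes. The 30 shoot markers, light-harvesting proteins and the Rubisco small subunit, summed to 51400 to 51930 TPM in treated OE1, against 62630 to 64100 TPM in untreated OE1. In ZH11 they summed to 48180 to 55740 TPM with treatment, against 64480 to 64620 TPM without it. The 11 root markers were silicon transporters and genes with casparian strip in their annotation. They summed to 574 to 608 TPM in treated OE1, against 790 to 802 TPM in untreated OE1. In ZH11 they summed to 540 to 552 TPM with treatment, against 500 to 556 TPM without it. Single root markers moved both ways, with log2 treatment differences from -0.94 to 0.19 in OE1 and from -1.08 to 2.46 in ZH11. Of the 24 seed markers, oleosins and glutelins, 5 were tested, 10 to 13 were listed at 0 in each group, and the sum was between 64.6 and 89.9 TPM in every library. The part of these shifts in the levels of A and B was not tested. In whole seedlings, more cells with a transcript and more transcript per cell cannot be told apart.

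The chromosomal neighbourhood of the pair held a further responding gene. By identifier number, the 5 loci before and the 5 after the pair include only 2 that passed the filter on low values. One of them, LOC_Os07g44410, lies 2 loci before gene A and is annotated as a WD40-like beta propeller repeat protein. It had 181 and 150 TPM in treated OE1, against 62.8 and 61.7 TPM in untreated OE1. It had 274 and 207 TPM in treated ZH11, against 52.5 and 51.0 TPM in untreated ZH11. The treated libraries lay above the untreated ones in both genotypes, and LOC_Os07g44410 rose by 1.39 ± 0.17 in OE1 and 2.18 ± 0.17 in ZH11 (log2 difference and SE, limma with 2 libraries per group, adjusted p = 0.0363 and 0.00927).

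Its OE1 minus ZH11 difference was -0.53 ± 0.17 with treatment and 0.26 ± 0.17 without it, and neither passed (limma adjusted p = 0.243 and 1). The difference of its treatment effects, -0.79 ± 0.25, did not pass either (limma adjusted p = 0.595). In OE1 the call of LOC_Os07g44410 ended under 10 of 17 alternatives (limma adjusted p from 0.00261 to 0.421). These were both rescalings, no filter, the replicate block, and leaving out either untreated ZH11 library or any OE1 library, and the difference lay between 1.25 and 1.53 over the 17. In ZH11 the call ended under 6 of 17 (limma adjusted p from 0.000526 to 0.47), namely with the 4 ZH11 libraries alone and without untreated ZH11 replicate 1 or 2, treated OE1 replicate 2, or untreated OE1 replicate 1 or 2, and the difference lay between 1.98 and 2.39 over the 17. The authors' deposited tables list LOC_Os07g44410 at 1.45 in OE1 and 2.199 in ZH11, treated over untreated.

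The locus between it and gene A, LOC_Os07g44420, was listed at 0 in all 8 libraries. LOC_Os07g44400, the other tested neighbour, averaged 3.49 TPM and differed by -0.10 in OE1 and -0.05 in ZH11 (limma adjusted p = 1 and 0.945). The 5 loci after gene B include 3 annotated as peroxidases and 1 as a dirigent protein, and their levels were below 1 TPM in every library. Beyond the pair, which was chosen with its levels known, LOC_Os07g44410 alone of the tested neighbours was higher with treatment. Both treated libraries lay above both untreated ones in 23.8% of all tested genes in OE1 and in 15.9% in ZH11.

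**Figure D4:**
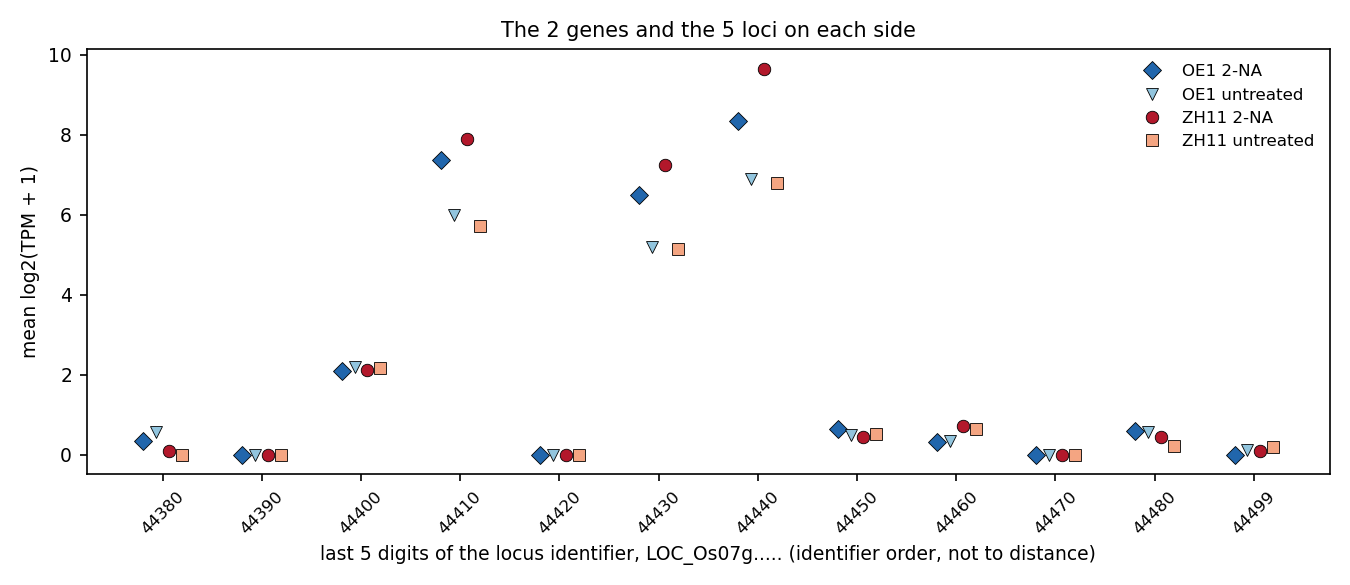
Mean log2(TPM + 1) of 2 libraries per group for the 2 genes and the 5 loci on each side, in the order of their identifiers on chromosome 7. LOC_Os07g44410, LOC_Os07g44430 and LOC_Os07g44440 stand above the rest in all 4 groups and are higher with 2-nitroaniline (2-NA) than without it in both genotypes.

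The genes whose profiles were most like the pair were found by the root mean square difference of log2(TPM + 1), after subtracting each gene's own mean over the 8 libraries, among 17422 other genes that averaged 5 TPM or more. Nearest to gene A was its neighbour LOC_Os07g44410, with a root mean square difference of 0.16. The next were LOC_Os02g49720 (0.27), an aldehyde dehydrogenase, LOC_Os03g55230 (0.27), a cytochrome P450, LOC_Os12g36860 (0.27), a pathogenesis-related protein 10, and LOC_Os01g08090 (0.29), a UDP-glycosyltransferase match. Gene B came only at rank 33 for gene A, at 0.46. The rank of LOC_Os07g44410 for gene A was 1 under both rescalings and both other pseudocounts. It was 2 without treated ZH11 replicate 1 or without treated ZH11 replicate 2, and 9 after the gradient with gene length was removed, LOC_Os07g44410 being listed with 2204 nt and gene A with 768 nt.

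Nearest to gene B was LOC_Os06g03930 (0.28), a cytochrome P450, of a family that oxidises diverse small molecules. It was followed by LOC_Os02g28170 (0.29) and LOC_Os02g28220 (0.33), both transferase family proteins matched to a phenolic glucoside malonyltransferase, LOC_Os09g34250 (0.32), a UDP-glycosyltransferase, and LOC_Os08g42590 (0.35), an mtN19 protein. Gene A came at rank 9 and LOC_Os07g44410 at rank 8 for gene B. The rank of LOC_Os07g44410 for gene B was 2 without treated ZH11 replicate 2, between 9 and 11 without any other single library, and 31 after the gradient with gene length was removed. LOC_Os06g03930 had 137 and 133 TPM in treated OE1, against 37.0 and 36.5 TPM in untreated OE1, and 153 and 264 TPM in treated ZH11, against 33.6 and 38.6 TPM in untreated ZH11. Like B it was higher in treated ZH11 replicate 2 than in replicate 1, whereas gene A and LOC_Os07g44410 were lower in replicate 2. Likeness over 8 libraries, 1 of which stands apart, describes these libraries only.

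**Figure D5:**
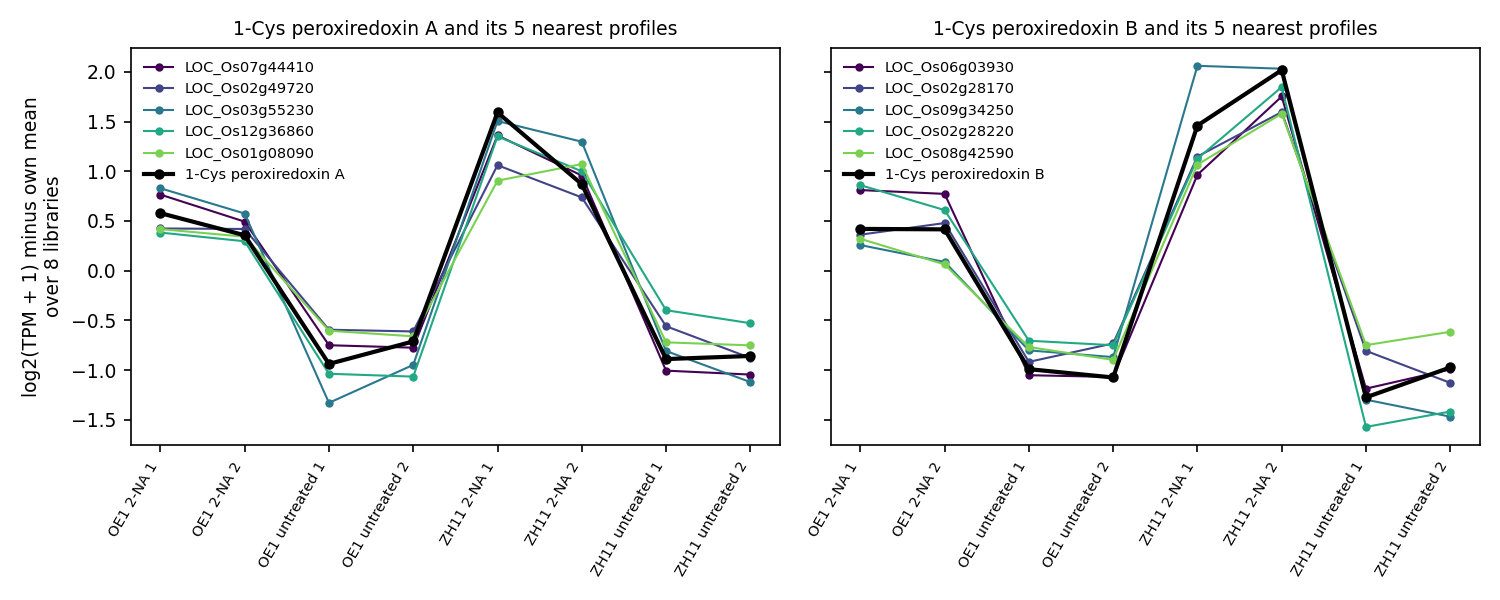
Profiles of 1-Cys peroxiredoxin A (left) and B (right), in black, with the 5 genes of smallest root mean square difference to each, as log2(TPM + 1) minus each gene's own mean over the 8 libraries. Gene A is lower and gene B higher in treated ZH11 replicate 2 than in replicate 1, and the nearest genes of A differ by 0.16 to 0.29 and those of B by 0.28 to 0.35.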

How the data were processed

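The values analysed were the authors' deposited TPM for each gene in each library. Estimated counts of reads and a log2 fold change came from the tables the authors deposited for their called genes. Tables deposited by the authors also gave read counts and the percent of GC per library. Per the submitters' processing notes, Cufflinks 2.2.1 was among the tools. Aligner, quantifier, counting strand, test and genome build are not given in the sources used here.

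Genes with 1 TPM or more in 2 or more libraries were kept, and log2(TPM + 1) was modelled with limma (4 group means, eBayes trend) over 25281 genes and 8 libraries. Benjamini-Hochberg adjustment ran over all of them in each of 5 comparisons. The model was tested on simulated data that gave each gene the same spread in all 4 groups. The wider spread of treated ZH11 was thus not covered. No count test was possible over all genes, since estimated counts cover called genes alone. Members, lists and tests were chosen with earlier results of these data known.

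Lists came from Pfam accessions and annotation text. Named genes were the pair, all other peroxiredoxins, called members of the other lists, the 5 loci on each side, and the 5 nearest profiles per gene. The catalases and the levels of LOC_Os06g03930 and LOC_Os06g27910 were added after their values were seen. No accession of the pair was found in the supplied RefSeq table, so no coordinates or sequences are given. Alternatives were 2 rescalings, other pseudocounts and filters, the compared libraries alone, a replicate block, removal of the length gradient, and each library left out. Software was R 4.3.3, limma 3.58.1, edgeR 4.0.16 for TMM factors alone, Python 3.11.15, pandas 2.3.3, numpy 2.4.6 and matplotlib 3.10.9.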

Additional observations from a re-analysis of the deposited data

How the results depend on the processing

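The treatment differences of both 1-Cys peroxiredoxin genes kept their sign in every alternative run. With 1 library left out they ranged from 1.18 to 1.41 in OE1 and 1.74 to 2.47 in ZH11 for gene A, and from 1.41 to 1.49 and 2.58 to 3.14 for gene B. The OE1 minus ZH11 difference with treatment ranged from -1.12 to -0.40 for A and -1.60 to -1.04 for B, that without treatment from -0.06 to 0.16 and -0.06 to 0.24, and the difference of the effects from -1.17 to -0.45 and -1.69 to -1.13. Removing the length gradient gave -1.14 for A and -1.72 for B with treatment, and -1.69 for the difference of the effects of B. Summing both genes gave 2.74 for the ZH11 effect, -1.24 between treated genotypes and -1.32 for the difference of effects. Estimated reads scaled to library size, which kept every sign, and the sum were added after the data were seen.

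Counts of called genes were less stable. In the order OE1 effect, ZH11 effect, untreated genotypes, treated genotypes and difference of effects, limma called 61, 73, 112, 241 and 8 genes. Leaving out 1 library gave 0 to 341, 0 to 2635, 37 to 169, 48 to 3854 and 0 to 2709. No filter gave 36, 27, 145 for treated genotypes and 14 for the difference. A filter at 5 TPM gave 68 for untreated genotypes, 152 for treated genotypes and 3 for the difference. The 4 compared libraries alone gave 557, 0 (1244 at an unadjusted p under 0.05) and 44 for treated genotypes. Length correction gave 184 and 170. A pseudocount of 5 gave 67 for untreated genotypes, and one of 0.1 gave 0 for the difference (1552 unadjusted). With the replicate number as a block the counts were 25, 21, 130 for treated genotypes and 0 for the difference (1430 unadjusted). Replicate differences correlated from -0.28 to 0.23 between groups, the highest being between treated and untreated ZH11. In both of these groups replicate 2 had the longer reads. The correlations therefore cannot settle whether the replicate numbers pair the libraries.

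Of 174 tested genes of the related lists, other peroxiredoxins included, limma called 0, 0, 1, 0 and 0 in that order. Leaving out 1 library gave 0 to 3, 0 to 19, 0 to 2, 0 to 22 and 0 to 19. For untreated genotypes the count was 2 with TMM factors, median-of-ratios factors and the 4 compared libraries, and 0 with pseudocounts 0.1 and 5, the 5 TPM filter and the replicate block. The 4 OE1 libraries alone gave 6 for the OE1 effect, and length correction gave 2 in OE1 and 1 in ZH11. The causes were not tested.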
